A study of Mus musculus with 155 samples.

Results

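The 47 genes described here encode developmental transcription factors outside the Hox clusters. They were taken from a list of homeobox, paired, forkhead, T-box and zinc finger genes that Polycomb repressive complex 2 (PRC2) typically occupies in embryonic stem cells (ESCs), a rule that uses no measured value. All 47 were present among the 55471 genes of the count tables. The list comprised 7 paired genes (Pax2, Pax3, Pax5, Pax6, Pax7, Pax8 and Pax9), 6 LIM homeobox genes (Lhx1, Lhx2, Lhx3, Lhx5, Lhx9 and Isl1) and 6 TALE homeobox genes (Irx1, Irx2, Irx3, Irx5, Meis1 and Meis2). It further held 3 NK homeobox genes (Nkx2-5, Nkx6-1 and Nkx6-2), 3 Dlx genes (Dlx1, Dlx2 and Dlx5), Six2, Six3, Evx1, Evx2, Msx1, Msx2, Onecut1, Onecut2, Barx1 and Mnx1. The other members were 4 forkhead genes (Foxa1, Foxc1, Foxd3 and Foxf1), 4 T-box genes (Tbx1, Tbx2, Tbx5 and Tbx15) and 4 zinc finger genes (Zic1, Zic2, Zic4 and Wt1).

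The study asked what the histone H3.3 mutations K27M and K27L do to mouse cells, and RNA was counted per gene in 42 libraries of KH2 ESC lines and cells differentiated from them. Each line carried 1 extra H3.3 gene, tagged with SNAP and HA and switched on with doxycycline (Dox), that encoded either mutant (H3.3K27M, H3.3K27L) or the wild-type protein (WT-H3.3), beside the cells' own H3.3 genes. H3.3K27M inhibits PRC2, whereas H3.3K27L lacks the lysine without that inhibition, and GSK343, a small-molecule inhibitor of the PRC2 enzyme EZH2, was given to the WT-H3.3 line as a further arm. All arms received Dox, and the number of clones behind each line was not given in the sources used here. ESCs of the 4 arms (3 lines, and GSK343 on the WT-H3.3 line) were kept in pluripotency medium with serum, leukemia inhibitory factor and inhibitors of MEK and GSK3. They were sampled after 4, 8, 24 and 72 h of Dox with 2 replicates each, giving 8 libraries per arm. Cells treated with retinoic acid (RA) came from the 3 lines at 24 and 72 h of Dox, with 1 library per line and time. Cultures taken towards oligodendrocyte progenitor cells (OPCs) through embryoid bodies, with RA and a Hedgehog agonist, came from the WT-H3.3 and H3.3K27M lines, again with 1 library per line at 24 and at 72 h.

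PRC2 places trimethylation on lysine 27 of histone H3 over CpG-rich promoters, and in ESCs the promoters of lineage-specifying transcription factors are among its best known targets. There the mark often lies together with the active mark on lysine 4 of the same histone, and the genes are transcribed little until a lineage is chosen. The factors themselves pattern the embryo: Pax, Nkx6, Irx and Dlx proteins divide the neural tube and forebrain, Lhx, Isl1 and Mnx1 proteins specify neurons, Tbx, Msx and Foxc1 proteins act in limb, heart and neural crest, and Foxa1 opens chromatin in endoderm.

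Levels are given as counts scaled to library size (CPM), scaled between libraries without chromosome 8, and differences as log2 fold changes with their standard error (SE). A gene was called when edgeR's quasi-likelihood test gave a Benjamini-Hochberg adjusted p under 0.05 over all genes tested and the change was over 2-fold. Library totals were 1247934 to 21161392 counts in 31 of the ESC libraries, 2239137 to 22269533 in the RA-treated and 7499258 to 12387113 in the OPC libraries. The second H3.3K27L ESC library at 72 h held only 68378 counts, so that 1 count there equals 13.6 CPM. The H3.3K27L ESC libraries of replicate 2 also stood apart in chromosome 8, which took 4.04 to 4.07% of their counts at 4, 8 and 24 h and 3.43% in the shallow library, against 5.61 to 6% in the other 28 ESC libraries. The H3.3K27L comparisons in ESCs were repeated with each replicate number alone, though not every member value is given that way. Comparisons across states keep the replicate 2 libraries of 24 and 72 h. Irx3, Irx5 and Foxf1, which lie on chromosome 8, were left out of the tests. The methods describe the ESC replicates as biological ones made weeks apart. The main ESC fit has no term for the replicate number, so libraries of different Dox times count as independent. Those that share a number may come from 1 experiment, and ESC p-values measure the spread between libraries, not between experiments or clones. Whether the 24 and 72 h libraries of RA-treated and OPC cultures came from separate cultures was not given in the sources used here, and p-values among them measure the spread between these libraries. The RA-treated cells, which the labels call neural progenitors, had 672 to 1202 summed CPM of 8 RA response genes against 4.15 to 30.5 in ESCs, and 404 to 2065 of 8 endoderm markers. The 7 neural progenitor markers present in the tables summed to 302 to 2122 CPM (ESCs 610 to 1126), and 4 were higher and 1 lower than in ESCs at each Dox time. The 8 neuron markers summed to 23.5 to 66.1 CPM (ESCs 255 to 697), and of the 7 tested, 1 was higher and 2 lower at 24 h, and 2 higher and 2 lower at 72 h. The cells are named here by their treatment.

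In ESCs, most members were at very low levels and a handful carried most of the counts. Summed over all 47, the level was 131 to 190.3 CPM in the 8 WT-H3.3 libraries, with a median of 161. Low counts removed 27 members from the ESC test. These 27 had 1525 counts together over the 32 ESC libraries. Outside the library of 68378 counts, none of them exceeded 1.71 CPM, and 6 passed 1 CPM in any. The 1.71 CPM was Pax8 in the second GSK343 library at 8 h, which held 1247934 counts, the next lowest total among ESC libraries. Of the 17 tested members, Zic2 stood highest in WT-H3.3 ESCs, with 33.7 to 79.2 CPM (median 48.9). Foxd3, a forkhead factor that ESCs need for self-renewal, had 17.2 to 26.5 CPM (median 22.6), and Nkx6-2, a homeobox factor of ventral neural tube and later of oligodendrocytes, 8.85 to 26.7 CPM (median 20.01). Meis2, a TALE cofactor of Hox and Pax proteins, had 8.75 to 22.8 CPM (median 17.9) and Irx2 8.85 to 20.3 CPM (median 10.6). The other 12 tested members had medians between 0.69 and 5.06 CPM. The heat map of levels shows these few bright rows in ESCs and the wider set that appears in both differentiated states.

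**Figure D1:**
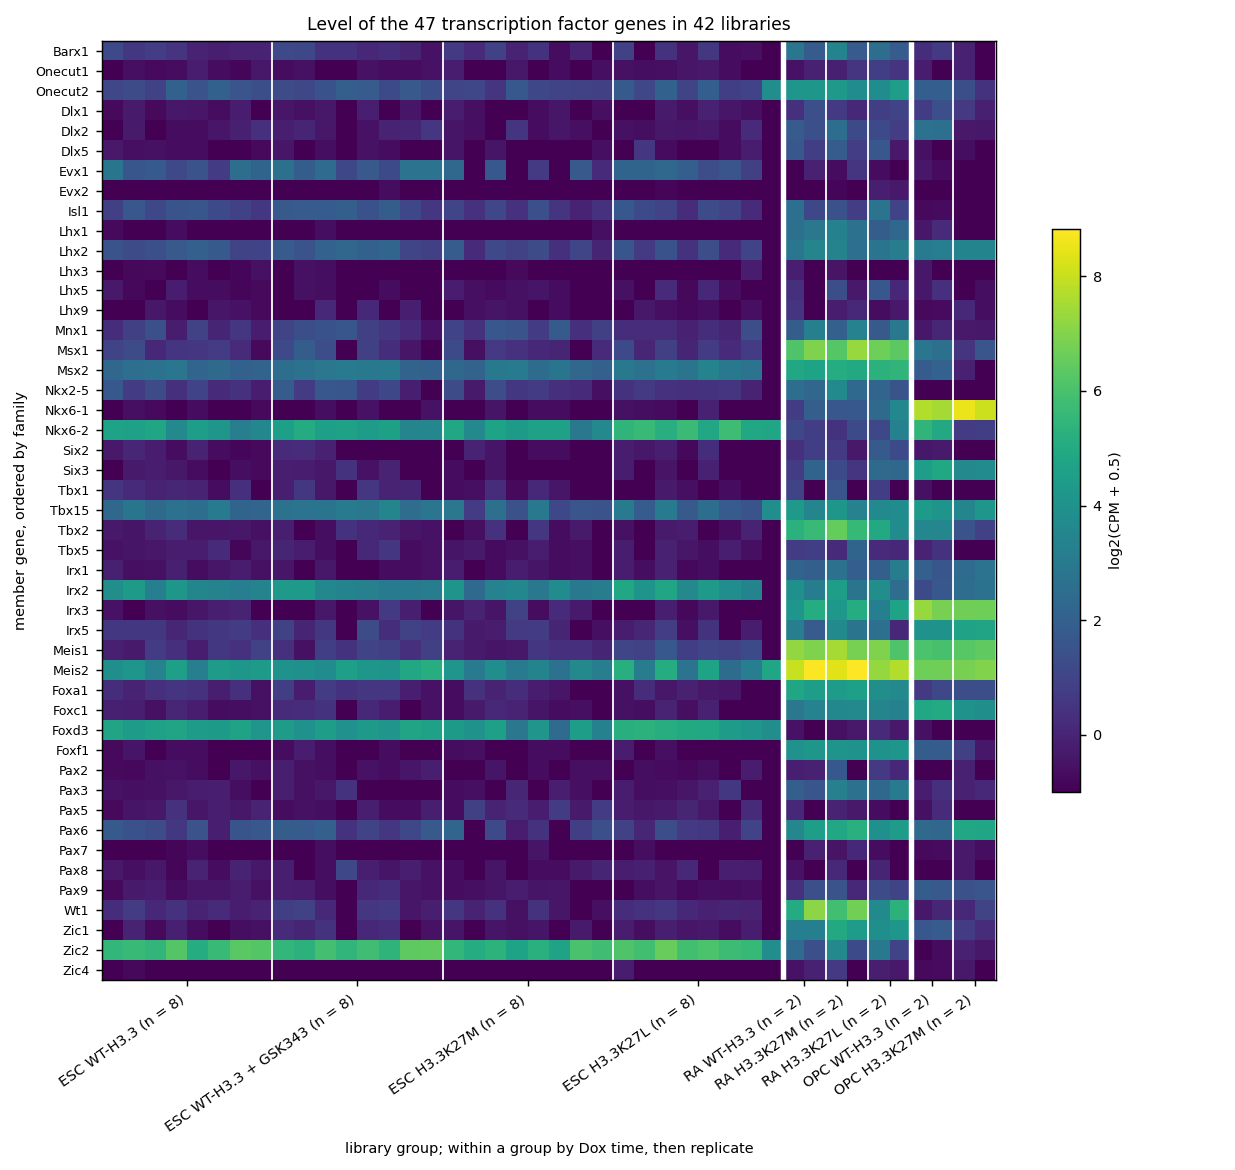
Each row is a member gene and each column a library, grouped by state and line (ESC arms n = 8, RA and OPC arms n = 2). Colour gives log2(CPM + 0.5). Zic2, Foxd3, Nkx6-2, Meis2 and Irx2 are bright across ESCs, Meis1, Msx1, Wt1 and Tbx2 are bright in RA-treated cells, and Nkx6-1 and Irx3 are brightest in OPC cultures. The last ESC column is the library of 68378 counts.

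The promoters of the members were rich in GC and CpG. The list was drawn from typical PRC2 targets, and PRC2 marks CpG-rich promoters, so the contrasts with all promoters are no independent result. RefSeq promoters (GRCm38.p6, from 250 bases before to 50 after the start) were matched by symbol for 35 of the 47 members, with 41 start sites in all. Their median GC content was 63.7% against 52.7% over 32851 promoters of 27025 genes, and the median number of CpG dinucleotides was 25 against 7. The ratio of observed to expected CpG exceeded 0.6 in 33 of the 41 (80.5%), against 35.8% of all promoters. AGGTCA, the core motif bound by retinoic acid receptors, was searched on both strands and occurred in 1 member promoter (2.44%, Dlx1) against 16.3% of all. The homeodomain core TAATTA occurred on either strand in 1 (2.44%, Msx2) against 5.29%, and TATAAA on either strand in 3 (7.32%, Lhx3, Evx2 and Meis2) against 13.6%. None of these 3 motifs contains another of them. The upstream 250 bases are printed for 4 members whose levels the comparisons below turn on, with each CpG in capitals: Foxd3, which was on in ESCs and off afterwards, Nkx6-2, which differed between lines in ESCs and in OPC cultures, and Meis1 and Msx1, which were nearly silent in ESCs and high after RA. They lie at chr4:99656049-99656298 (plus strand, Foxd3), chr7:139582798-139583047 (minus strand, Nkx6-2), chr11:19018970-19019219 (minus strand, Meis1) and chr5:37824586-37824835 (minus strand, Msx1), directly before the RefSeq start of each gene. They hold 21 CpG in Foxd3, 26 in Nkx6-2, 13 in Meis1 and 20 in Msx1.
Foxd3: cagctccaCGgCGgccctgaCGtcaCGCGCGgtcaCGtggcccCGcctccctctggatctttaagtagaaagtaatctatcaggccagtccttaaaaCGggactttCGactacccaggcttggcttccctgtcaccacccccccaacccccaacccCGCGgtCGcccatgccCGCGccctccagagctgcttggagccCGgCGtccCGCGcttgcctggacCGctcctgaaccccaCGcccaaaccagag
Nkx6-2: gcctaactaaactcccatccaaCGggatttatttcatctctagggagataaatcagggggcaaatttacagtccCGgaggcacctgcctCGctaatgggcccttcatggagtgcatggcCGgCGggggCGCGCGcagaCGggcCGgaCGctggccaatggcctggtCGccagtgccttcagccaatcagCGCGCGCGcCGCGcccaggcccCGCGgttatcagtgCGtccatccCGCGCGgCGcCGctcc
Meis1: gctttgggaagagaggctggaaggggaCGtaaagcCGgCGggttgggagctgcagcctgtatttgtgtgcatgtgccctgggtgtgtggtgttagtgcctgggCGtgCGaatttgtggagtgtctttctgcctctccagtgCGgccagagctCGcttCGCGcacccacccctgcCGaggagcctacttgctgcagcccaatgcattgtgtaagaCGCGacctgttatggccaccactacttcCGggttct
Msx1: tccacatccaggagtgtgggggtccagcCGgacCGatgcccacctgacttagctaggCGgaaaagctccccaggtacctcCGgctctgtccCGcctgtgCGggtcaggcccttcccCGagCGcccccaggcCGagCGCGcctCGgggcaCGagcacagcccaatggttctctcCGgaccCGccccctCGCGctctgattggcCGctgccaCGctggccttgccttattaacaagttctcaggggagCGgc

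The first comparison asks whether H3.3K27M, by inhibiting PRC2, raised these genes in ESCs, and no member was called in either direction. Over 8 libraries against 8, the share of all 14076 genes called was 0.0142% (0.00710% higher and 0.00710% lower), with edgeR's quasi-likelihood test. DESeq2 called none of the 17 tested members either, and 6 of the 17 had an unadjusted p under 0.05 in edgeR, as had 1610 of all genes. The fold changes leaned down rather than up: 14 of 17 were negative with a median of -0.50, where the median of all genes was -0.01. The 95% interval stayed under a 2-fold rise for 16 of the 17, and reached above it for Mnx1 (0.74, SE 0.34, edgeR adjusted p = 0.401). With the replicate number as a block, which paired the H3.3K27M and WT-H3.3 libraries, the calls over all genes went from 2 to 23 and those among members remained at 0.

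Zic2, whose protein acts at ESC enhancers and in the neural plate, had 24.6 to 63.8 CPM (median 38.6) in H3.3K27M ESCs against 33.7 to 79.2 (median 48.9) with WT-H3.3, and the ranges overlapped. The log2 difference was -0.47 (SE 0.15, edgeR adjusted p = 0.221). Foxd3 had 4.86 to 23.0 CPM (median 16.4) against 17.2 to 26.5 (median 22.6), a difference of -0.63 (SE 0.23, edgeR adjusted p = 0.287). Isl1, a LIM factor of motor neurons and heart progenitors, had 0.474 to 2.16 CPM (median 0.864) against 1.02 to 2.72 (median 1.73), a difference of -0.73 (SE 0.27, edgeR adjusted p = 0.288). None of these passed the test, and over the alternatives the lowest adjusted p was 0.026 for Zic2, 0.00396 for Foxd3 and 0.103 for Isl1, with no difference over 2-fold. Foxd3 was low in the H3.3K27M libraries of replicate 2, with 15.7, 6.96, 4.86 and 9.49 CPM at 4, 8, 24 and 72 h, and nearer the controls in replicate 1, with 19.8, 23.0, 17.2 and 21.5 CPM.

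The same split by replicate held for the members as a set. In replicate 2, the median log2 difference of the 17 members from the WT-H3.3 library of the same time and number was -1.01, -0.68, -0.71 and -0.40 at 4, 8, 24 and 72 h. In replicate 1, it was 0.13, -0.03, -0.22 and -0.30. Summed over all 47 members, H3.3K27M replicate 2 had 90.3, 100.02, 94.8 and 111 CPM, and replicate 1 had 166, 148, 128 and 131, beside 131 to 190.3 in the WT-H3.3 libraries. Evx1, a homeobox factor of the primitive streak and V0 neurons, was at 0 counts in the H3.3K27M replicate 2 libraries at 4, 8 and 24 h and at 0.666 CPM at 72 h, while replicate 1 had 4.50, 2.79, 1.08 and 2.84 CPM and the WT-H3.3 libraries 1.15 to 6.53. Its fitted log2 difference, -1.20 (SE 0.52), had an edgeR adjusted p of 0.379. Evx1 was chosen after its values were seen.

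**Figure D2:**
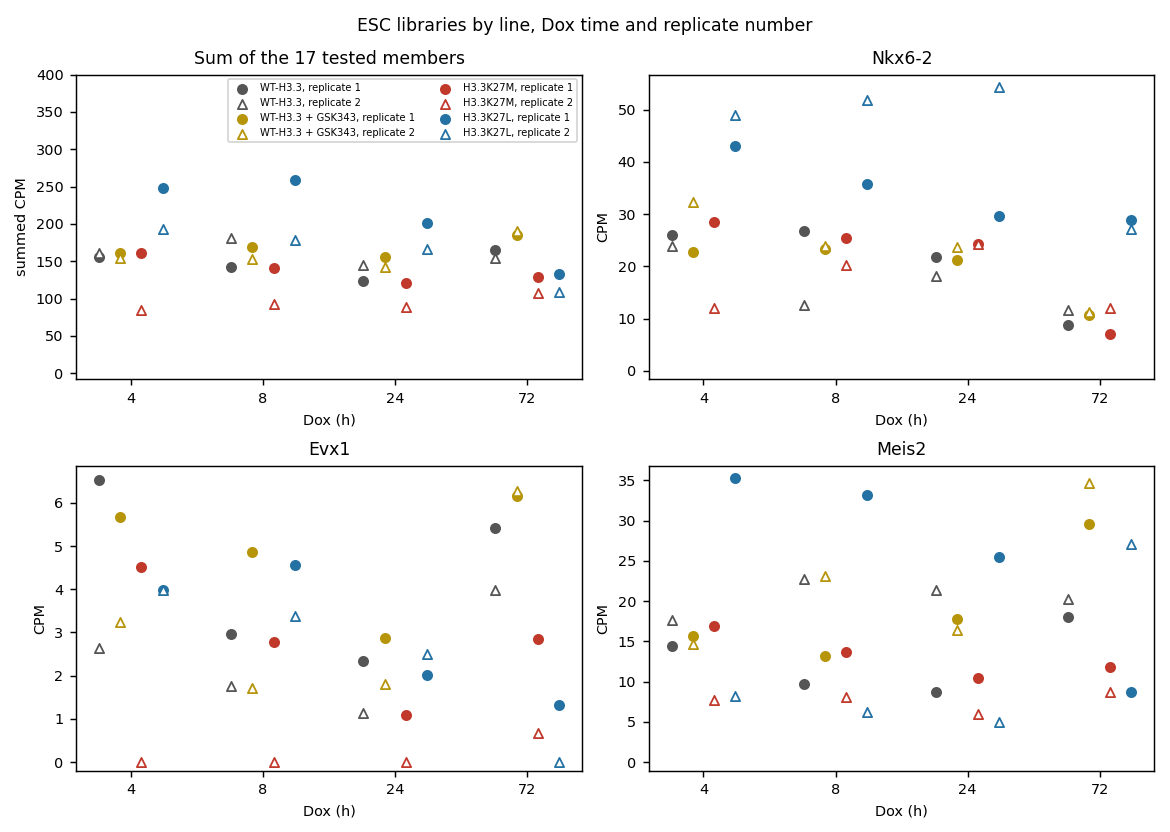
Each point is an ESC library, placed by Dox time (h) and coloured by arm, with circles for replicate 1 and triangles for replicate 2; the panels give the summed CPM of the 17 tested members and the CPM of Nkx6-2, Evx1 and Meis2. The H3.3K27M triangles lie lowest in the sum up to 24 h, all H3.3K27L points of Nkx6-2 lie at or above 27.1 CPM, and Meis2 in H3.3K27L splits by replicate number.

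At the later times alone (24 and 72 h, 4 libraries against 4), H3.3K27M gave no called member, beside 0% of all genes, and 1 member had an unadjusted p under 0.05 in edgeR, as had 587 of all genes. DESeq2 called no member either. The 3 members of lowest p were Foxd3 with -0.67, Lhx2, a LIM factor of forebrain and eye, with -0.89 and Onecut2, a cut-domain factor of liver and neurons, with -0.82, each with an edgeR adjusted p of 0.993. Lhx2 had 1.92, 0.768, 1.58 and 0.4997 CPM in these H3.3K27M libraries against 1.48 to 3.58 in WT-H3.3, with overlap. Onecut2 had 1.68, 1.54, 1.42 and 1.33 CPM against 2.04 to 3.69, without overlap. The change of the H3.3K27M difference from the early (4 and 8 h) to the late times was called for no member in edgeR or DESeq2, beside 0% of genes, and 0 members and 81 of all genes had an unadjusted p under 0.05 in edgeR. Onecut2 (-0.53), Meis1 (0.57) and Lhx2 (-0.51) led it with edgeR adjusted p of 1.

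GSK343, the drug that inhibits the same enzyme, likewise raised no member past the test. None of the 17 tested members was called over all times, beside 0% of all genes, and DESeq2 called none. With edgeR, 1 member, Msx2, had an unadjusted p under 0.05, as had 616 of all genes. Msx2, a homeobox factor of limb, skull and neural crest, had 3.62 to 7.79 CPM (median 6.4) with GSK343 and 3.64 to 6.83 (median 4.56) without. The difference was 0.29 (SE 0.13, edgeR adjusted p = 0.976), and the ranges overlapped. Isl1 had 0.951 to 3.42 CPM (median 2.99) with the drug, a difference of 0.43 (SE 0.25), and Meis1, a Hox cofactor, 0.171 to 1.53 CPM (median 1.07) against 0.310 to 1.39 (median 0.784), a difference of 0.45 (SE 0.30). The direction leaned up, with 14 of 17 fold changes positive and a median of 0.22 against 0.01 over all genes. That median was 0.095 without the first GSK343 library at 8 h, and 0.13 and 0.14 without the second WT-H3.3 library at 8 h and at 24 h. The 95% intervals of 9 of the 17 members lay within 2-fold in both directions, and those of the other 8 did not.

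In the GSK343 libraries of 24 and 72 h of Dox, no member was called, beside 0% of all genes. The times are those of Dox, and the time in GSK343 is not known here. The edgeR test gave an unadjusted p under 0.05 for 0 members and 139 of all genes, and DESeq2 called no member. Msx2, Meis1 and Tbx15 had the lowest p, with adjusted p of 1 in edgeR. Nor was the change of the GSK343 difference from early to late times called for any member in edgeR or DESeq2, beside 0% of genes, and 0 members and 108 of all genes had an unadjusted p under 0.05 in edgeR. Msx1 (-1.47), Mnx1 (-1.04) and Nkx2-5 (-1.09) led that change with edgeR adjusted p of 1, and all 3 had CPM under 3.5 in every ESC library. The comparisons of H3.3K27M, H3.3K27L and GSK343 share the 8 WT-H3.3 libraries, so their values are set side by side only. A direct comparison of H3.3K27M with GSK343 called no member, beside 0.0853% of all genes (0.0355% higher, 0.0497% lower), 7 members and 2938 genes had an unadjusted p under 0.05 in edgeR, DESeq2 called no member, and 16 of the 17 fold changes were negative, with a median of -0.50 (all genes -0.02). Without the first H3.3K27M library at 4 h, that median was -0.83.

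Isl1 gave the lowest p between H3.3K27M and GSK343, with a difference of -1.16 and an edgeR adjusted p of 0.0735. With the replicate block it was called (-1.16, edgeR adjusted p = 0.0447), though the GSK343 libraries did not pair with WT-H3.3 by number at every time, and also without the first H3.3K27M library at 4, 8 or 24 h. Zic2 (-0.50, edgeR adjusted p = 0.11) and Lhx2 (-0.95, edgeR adjusted p = 0.127) followed. Lhx2 had 0.4997 to 3.17 CPM (median 1.48) with H3.3K27M and 1.33 to 4.28 (median 3.33) with GSK343, so that the ranges overlapped.

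**Figure D3:**
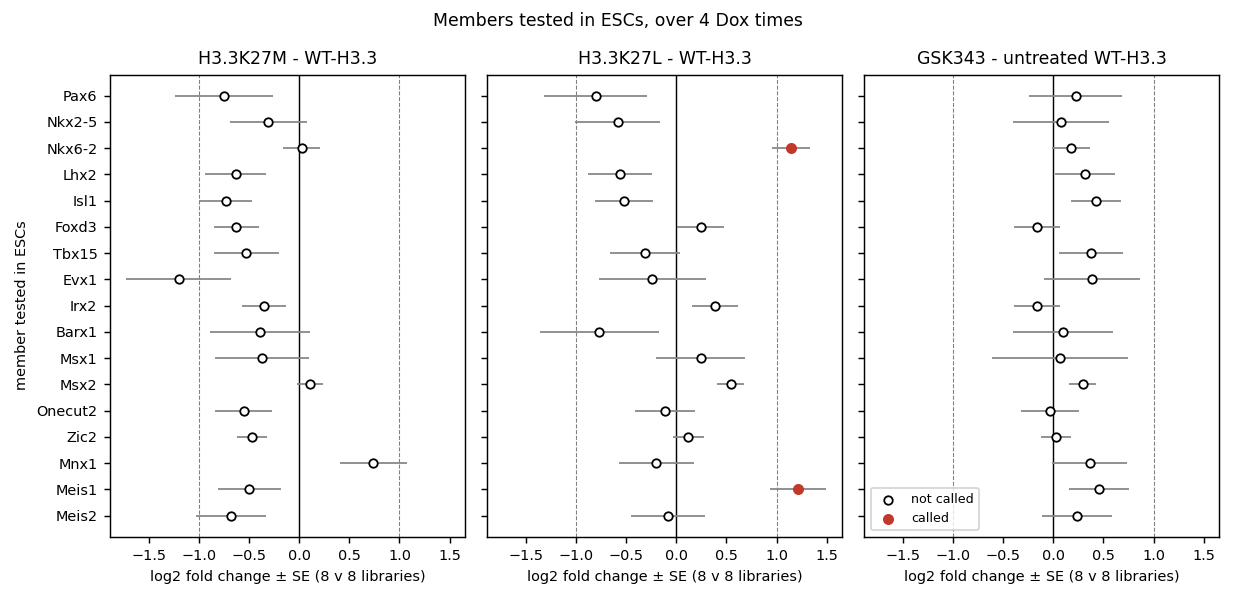
Points give the log2 fold change of the 17 tested members against WT-H3.3 ESCs, with the SE as bars, for H3.3K27M, H3.3K27L and GSK343 (8 libraries against 8, all Dox times); filled points were called and dashed lines mark 2-fold. Only Nkx6-2 (1.15) and Meis1 (1.22) under H3.3K27L are filled, and most H3.3K27M points lie left of 0.

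H3.3K27L was the arm in which members were called in ESCs. Nkx6-2 and Meis1 were higher and no member was lower, 2 of 17 tested, where 3.45% of all genes were called (0.618% higher, 2.83% lower). Nkx6-2 had 43.1, 35.8, 29.7 and 28.8 CPM in replicate 1 at 4, 8, 24 and 72 h and 49.0, 51.9, 54.4 and 27.1 CPM in replicate 2. The WT-H3.3 libraries had 8.85 to 26.7 CPM (median 20.01). The 7 deeper H3.3K27L libraries thus had 28.8 CPM or more and stood above every WT-H3.3 library. In the shallow library, where 1 count equals 13.6 CPM, the 27.1 CPM lay only just above the highest WT-H3.3 value. The difference was 1.15 (SE 0.19, edgeR adjusted p = 0.00047). Under H3.3K27M (7.11 to 28.5 CPM, median 22.2) and GSK343 (10.8 to 32.3 CPM, median 23.0), Nkx6-2 spanned about the range of WT-H3.3.

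Since the replicate 2 libraries of H3.3K27L stood apart, the comparison was repeated with each replicate number alone. For Nkx6-2, the difference was 0.92 (edgeR adjusted p = 0.00757, under 2-fold) with replicate 1 and 1.35 (edgeR adjusted p = 0.212) with replicate 2, where the 72 h value rests on the shallow library. Leaving out the first H3.3K27L library at 72 h ended the call (edgeR adjusted p = 0.247), and the fitted difference stayed between 1.02 and 1.32 whichever of the 16 libraries was left out. Meis1 had 1.56, 2.74, 1.58 and 1.81 CPM in replicate 1 and 1.37, 1.27, 1.38 and 0 CPM in replicate 2, against 0.310 to 1.39 CPM. The 7 deeper libraries reached from just below the highest control to 2.74 CPM, and the shallow library had no Meis1 count. The difference was 1.22 (SE 0.28, edgeR adjusted p = 0.00724), DESeq2 gave an adjusted p of 0.0711, and without the first library at 72 h, when the 72 h value rests on the shallow library, the fitted difference became -0.50 (edgeR adjusted p = 0.967).

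Msx2 also differed under H3.3K27L at less than 2-fold (0.54, edgeR adjusted p = 0.0127). At 24 and 72 h only, Nkx6-2 alone was called (1.27, edgeR adjusted p = 0.0336), 1 of 17 beside 0.547% of all genes (0.0710% higher, 0.476% lower). That late call was lost on leaving out any of 6 of the 8 libraries. Set directly against H3.3K27L, H3.3K27M ESCs had lower Nkx6-2 (-1.12, edgeR adjusted p = 0.000563) and lower Meis1 (-1.72, edgeR adjusted p = 0.00078), 2 of 17 members beside 3.79% of genes (2.61% higher, 1.18% lower). Without the first H3.3K27L library at 72 h, neither of the 2 was called (Nkx6-2 edgeR adjusted p = 0.236), and the Meis1 difference was 0.0037. Without the second H3.3K27L library at 24 h, Nkx6-2 fell just under 2-fold (-0.99). Meis2 was not called under H3.3K27L, but its libraries fell apart by number, with 35.3, 33.1 and 25.5 CPM at 4, 8 and 24 h in replicate 1 and 8.24, 6.18 and 5.01 CPM in replicate 2. The WT-H3.3 values of Meis2 at those times were 14.4, 9.75 and 8.75 CPM in replicate 1 and 17.7, 22.8 and 21.4 CPM in replicate 2, in the opposite order. Meis2 was chosen after its values were seen.

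Among 86 other genes of the same families present in the tables, used as a reference list, 34 were tested in ESCs. None was called under H3.3K27M or GSK343 against WT-H3.3. H3.3K27L had 2 higher and 4 lower of the 34, among them Tbx20 (1.67, edgeR adjusted p = 0.000178) and Tbx21 (-1.72, edgeR adjusted p = 0.00152).

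Most tested members differed between RA-treated cells and ESCs. After 24 h of Dox, 29 of 35 members tested across states were higher and 4 lower in the 3 RA-treated libraries than in the 6 ESC libraries of the same 3 lines and Dox time, where 23.3% of all 15923 genes were called higher and 18.8% lower. After 72 h, 27 were higher and 3 lower, beside 26.4% and 30.6% of all genes. Many members passed the filter on low counts only through the state in which they were high. Of the 17 members that also passed the ESC filter, 12 were higher, 4 lower and 1 not called at 24 h, and 11, 3 and 3 at 72 h. In these bulk samples, fewer cells of a type and less RNA per cell cannot be told apart. The library kit was not given per library, so kit, culture batch and state cannot be told apart either.

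The TALE cofactors Meis1 and Meis2, which bind DNA beside Hox proteins and are known RA targets, were among the highest members after RA. Meis1 had 0.370 to 1.58 CPM (median 0.989) in ESCs at 24 h and 122, 153 and 183 CPM in the RA-treated libraries, without overlap. The difference was 7.21 (SE 0.28, edgeR adjusted p = 5.9e-15), and at 72 h it was 6.58 (SE 0.30), from 0 to 1.81 CPM (median 0.807) to 69.0, 113 and 123 CPM. Meis2 was already on in ESCs, with 5.01 to 25.5 CPM (median 9.59) at 24 h, and reached 156, 257 and 336 CPM, a difference of 4.24 (SE 0.42). At 72 h it had 209, 433 and 456 CPM against 8.66 to 27.1 (median 14.9), a difference of 4.80 (SE 0.45).

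Msx1, Wt1, Tbx2 and Foxc1 rose at both times. Msx1, a homeobox factor of craniofacial and limb mesenchyme, went from 0.512 to 1.15 CPM (median 0.806) to 69.4, 75.9 and 100.5 CPM at 24 h, a difference of 6.62 (SE 0.43), and to 81.4, 123 and 159.9 CPM at 72 h (8.06, SE 0.50). Wt1, a zinc finger regulator of kidney, gonad and mesothelium, went from 0.256 to 0.840 CPM (median 0.497) to 12.4, 32.8 and 57.8 CPM (5.85, SE 0.37) and at 72 h to 39.7, 107 and 140.3 CPM (8.29, SE 0.42). For each, all RA-treated libraries lay above all ESC libraries. Tbx2, a T-box repressor of heart, limb and eye, rose from 0 to 0.959 CPM (median 0.187) to 30.8, 38.5 and 89.5 CPM (7.54, SE 0.62) and had 13.0, 47.9 and 49.3 CPM at 72 h (7.32, SE 0.70). Foxc1, a forkhead factor of mesoderm and neural crest, had at most 0.430 CPM in ESCs and 7.01, 10.7 and 11.5 CPM at 24 h (5.46, SE 0.42), then 9.39, 9.87 and 11.9 CPM (6.45, SE 0.51). None of these overlapped between states.

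Foxa1, Zic1, Onecut2, Nkx6-1 and Lhx1 rose in the same libraries. Foxa1, the pioneer factor of gut endoderm, went from 0.251 to 0.863 CPM (median 0.323) to 14.1, 20.3 and 26.7 CPM at 24 h (5.62, SE 0.43) and stood at 11.8, 21.5 and 22.9 CPM at 72 h (6.26, SE 0.50). Zic1, a zinc finger factor of dorsal neural tube, had at most 0.330 CPM in these ESC libraries and 8.91, 14.2 and 30.8 CPM (6.93, SE 0.57), then 9.01, 17.3 and 20.8 CPM (6.24, SE 0.60). Onecut2 had 1.25 to 3.69 CPM (median 2.01) and reached 13.2, 17.2 and 19.5 CPM at 24 h (2.92, SE 0.32) and 13.4, 18.0 and 21.5 CPM at 72 h (3.31, SE 0.36). At 72 h its ranges overlapped, because the shallow H3.3K27L library had a single count, 13.6 CPM. Nkx6-1, which patterns ventral neural tube and pancreas, had at most 0.430 CPM in ESCs and 1.14, 2.69 and 4.78 CPM at 24 h (4.35, SE 0.43). At 72 h it had 1 count over the 6 ESC libraries and 55 over the 3 RA-treated ones (2.75, 3.43 and 11.5 CPM), a ratio of 271 with a 95% counting interval of 46.6 to 10878. Lhx1, a LIM factor of kidney and of the organizer, had no count in the 6 ESC libraries at 24 h and 268 after RA (3.23, 5.69 and 9.54 CPM), which made it at least 119-fold higher against a floor of 3 counts over the group.

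The other 18 members called higher at 24 h had differences from 1.30 (Isl1) to 5.60 (Dlx5). By family, the 29 calls covered all 3 tested Pax genes (Pax3, Pax6 and Pax9), all 3 Dlx genes, Six2, Six3, all 4 tested LIM homeobox genes (Lhx1, Lhx2, Lhx5 and Isl1) and 3 of 4 T-box genes, with Tbx5 not called (1.23, edgeR adjusted p = 0.106). Pax3, Pax9, the Dlx genes, Six2, Six3, Lhx1 and Lhx5 had failed the ESC filter. Pax2, Pax5, Pax7, Pax8, Lhx3 and Lhx9 were too low to test here. The filter thus shaped these family counts, which are no independent result. Pax6 differed by 4.32 (SE 0.62), Dlx5 by 5.60 (SE 0.65) and Irx1, an Iroquois factor of neural tube and heart, by 4.74 (SE 0.52). Irx2, already on in ESCs, was not called at either time (0.45 and -0.42). Isl1, Lhx5 and Tbx1 were not called at 72 h.

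Of the 5 members highest in WT-H3.3 ESCs, Foxd3 and Zic2 fell at both times and Nkx6-2 at 24 h. Foxd3 fell from 4.86 to 29.7 CPM (median 20.4) to 0.179, 0.190 and 0.646 CPM at 24 h, a difference of -5.76 (SE 0.54, edgeR adjusted p = 8.34e-09). At 72 h it had 2 counts in 3 libraries against 847 in ESCs, a CPM ratio of 86.1 with a 95% counting interval of 23.8 to 712. Zic2 fell from 24.6 to 66.2 CPM (median 43.0) to 4.93, 7.37 and 11.9 CPM (-2.38, SE 0.35) and then to 1.51, 1.83 and 2.15 CPM against 13.6 to 79.2 (median 59.7) at 72 h (-5.09, SE 0.49). Nkx6-2 fell at 24 h from 18.2 to 54.4 CPM (median 24.2) to 0.851, 1.68 and 1.71 CPM (-4.43, SE 0.89), and at 72 h it was not called, with 1.29, 1.83 and 9.39 CPM against 7.11 to 28.8. The high value at 72 h was the H3.3K27L library. Evx1 was lower at both times (-3.28 and -2.47), though its ESC range began at 0 CPM and overlapped.

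Between the RA-treated libraries of 24 and 72 h of Dox, 2 members were higher at 72 h and 6 lower, 8 of 35, beside 38.4% of all genes (14.0% higher, 24.4% lower), and the median of all genes was itself -0.32. Wt1 (1.56, SE 0.34, edgeR adjusted p = 0.000608) and Mnx1 (1.48, SE 0.49, edgeR adjusted p = 0.0146) were higher. Mnx1, a homeobox factor of motor neurons and pancreas, had 2.84, 3.22 and 3.49 CPM at 24 h and 7.27, 9.01 and 9.77 at 72 h, without overlap. Zic2 was lower (-2.18), as were Irx2 (-1.31, from 14.1, 14.8 and 21.8 CPM to 5.15, 6.41 and 8.58), Isl1 (-1.56, from 2.24, 5.5 and 6.46 CPM to 1.22, 1.51 and 1.72) and Dlx5, a factor of branchial arches and bone (-1.61, from 2.65, 2.72 and 3.18 CPM to 0.303, 1.22 and 1.29). Tbx1, the T-box factor of the pharyngeal arches, had 74 counts at 24 h and none at 72 h, at least 6.22-fold lower. Lhx5, a LIM factor of forebrain, had 71 and 3 counts, a ratio of 5.97 with a counting interval of 1.96 to 29.6. In 8 of the 35 members, the libraries of both times did not overlap, against 58.8% of all genes. The sources used here give the time in RA for the 72 h libraries and not for the 24 h ones, so time in RA and time in Dox cannot be told apart. With the WT-H3.3 libraries only, 1 member was called, and DESeq2 called 5.

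Other genes of these families moved in the same comparisons, with 32 of 57 higher and 11 lower at 24 h and 30 higher and 11 lower at 72 h. The shares of all genes are those given above for RA against ESCs. More of these genes passed the filter on low counts across states than in ESCs alone, so the filter shaped these counts too. Foxa2 (9.74 and 10.57) and the zinc finger gene Gata6 (9.5 and 10.22) led the rises, and Nkx1-2 (-7.36 and -8.21) the falls. Foxa2 and Gata6 are also among the endoderm markers. Between both RA times, 8 were higher and 10 lower.

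Within the RA-treated cells, H3.3K27M called no member against WT-H3.3, with 26 members tested, 2 libraries per line and 0.0163% of all genes called (0.00815% higher, 0.00815% lower). DESeq2 called none either, and 5 members had an unadjusted p under 0.05 in edgeR, as had 752 of all 12265 genes. Zic1 had 8.91 and 9.01 CPM in WT-H3.3 at 24 and 72 h and 30.8 and 20.8 CPM in H3.3K27M, without overlap. The difference was 1.51 (SE 0.27, edgeR adjusted p = 0.0856). Pax6, the paired factor of eye and forebrain, had 11.2 and 21.5 CPM against 29.6 and 37.8 in H3.3K27M (1.08, SE 0.23, edgeR adjusted p = 0.155). Pax3, a paired factor of dorsal neural tube and neural crest, had 3.41 and 2.57 CPM against 9.27 and 6.10 (1.32, SE 0.43, edgeR adjusted p = 0.557). Each was higher at both Dox times without passing the test. With the H3.3K27L libraries left out of the fit, Zic1 (edgeR adjusted p = 0.00166) and Pax6 (edgeR adjusted p = 0.0196) were called, and Zic1 was also called on leaving out the 24 h or the 72 h library of WT-H3.3 or the 72 h library of H3.3K27M, and Pax6 on leaving out the 72 h library of WT-H3.3.

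H3.3K27L differed from WT-H3.3 in 2 of the 26 members after RA, where 3.59% of all genes were called (1.48% higher, 2.10% lower). Wt1 was lower, with 12.4 and 39.7 CPM at 24 and 72 h against 32.8 and 140.3, a difference of -1.66 (SE 0.26, edgeR adjusted p = 0.00458). It was higher at 72 h than at 24 h in both lines and lower in H3.3K27L at each time. Nkx6-1 was higher, with 4.78 and 11.5 CPM against 1.14 and 3.43 (1.87, SE 0.51, edgeR adjusted p = 0.046), and lost its call when the 24 h library of WT-H3.3 or the 72 h library of H3.3K27L was left out, and in DESeq2 (adjusted p = 0.118). Meis2 (-0.90, edgeR adjusted p = 0.00893) and Foxa1 (-0.91, edgeR adjusted p = 0.0446) passed the test at less than 2-fold. With H3.3K27M set against H3.3K27L, 4 members were higher and none lower, beside 6.71% of all genes (3.12% higher, 3.59% lower). These were Wt1, with 57.8 and 107 CPM in H3.3K27M (1.83, SE 0.25, edgeR adjusted p = 0.000676), and Meis2, with 336 and 456 CPM against 156 and 209 (1.08, edgeR adjusted p = 0.0014). Tbx2 had 89.5 and 47.9 CPM against 30.8 and 13.0 (1.58, SE 0.29, edgeR adjusted p = 0.00395), and Nkx2-5, an NK factor of heart, 12.2 and 4.58 CPM against 4.14 and 2.42 (1.33, edgeR adjusted p = 0.0345).

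Meis2, Tbx2 and Nkx2-5 lost their call without the H3.3K27M library of 24 h, Nkx2-5 also without the H3.3K27L library of 24 h and in DESeq2 (adjusted p = 0.258), and Meis2 fell under 2-fold without the H3.3K27L library of 72 h (0.95). When the Dox times were pooled instead of fitted, no member and no other gene was called in any of these RA comparisons with H3.3K27L. The libraries also differed in markers of other cells: the 8 endoderm markers summed to 1816 to 2065 CPM in H3.3K27L, 611 to 1001 in WT-H3.3 and 404 to 586 in H3.3K27M, the 7 trophoblast markers to 577 to 1456, 1095 to 1950 and 766 to 1897 CPM, and the 12 pluripotency genes to 367 to 582, 208 to 318 and 206 to 264 CPM. The 8 RA response genes summed to 684 to 1202 CPM in H3.3K27L, 689 to 741 in WT-H3.3 and 672 to 816 in H3.3K27M. Gene by gene, however, 2 of the 8 were called lower in H3.3K27L than in WT-H3.3, with a median difference of -0.88, and 3 were higher and 1 lower in H3.3K27M than in H3.3K27L, with a median of 0.96. The part of these lists in the differences was not tested. Of 43 other family genes tested, H3.3K27M called none, H3.3K27L 5 higher and 3 lower, led by Gata4 (1.59) and Foxa2 (1.30), which are also among the endoderm markers.

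**Figure D4:**
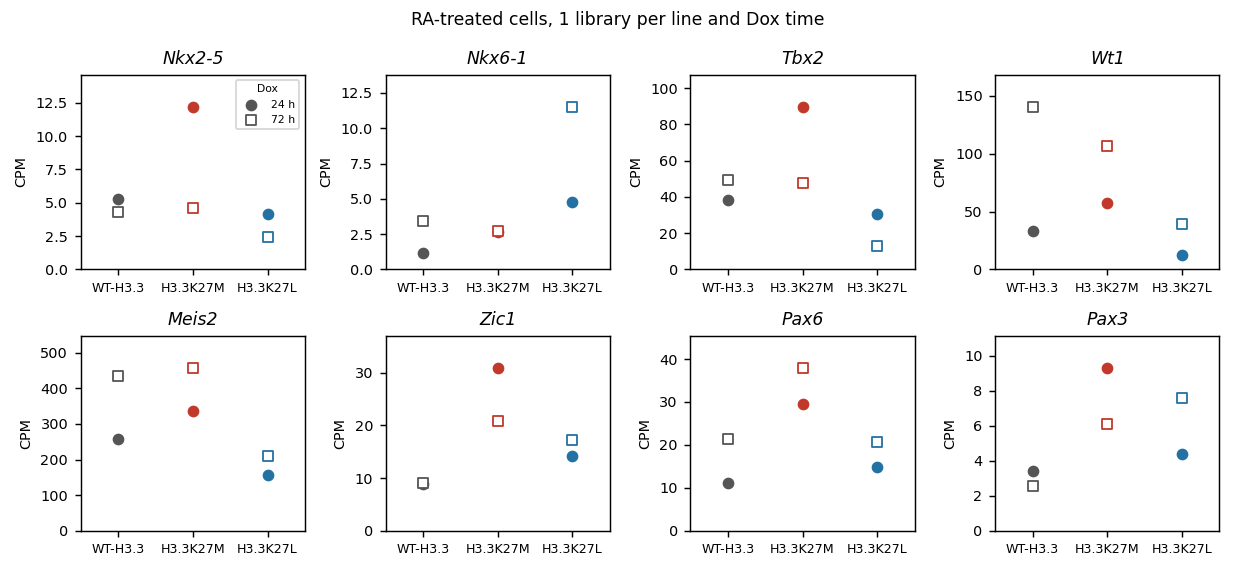
Each point is an RA-treated library, with its line on the x axis, CPM on the y axis and the Dox time as the symbol. Shown are the members called in H3.3K27L comparisons (Nkx2-5, Nkx6-1, Tbx2, Wt1 and Meis2) and the 3 of lowest p for H3.3K27M (Zic1, Pax6 and Pax3), whose 2 H3.3K27M values lie above both WT-H3.3 values.

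In OPC cultures, 18 of the 35 members tested were higher and 9 lower than in ESCs (4 libraries against 12), where 67.1% of all genes were called, 31.1% higher and 36.1% lower. Of the 17 that passed the ESC filter, 6 were higher, 8 lower and 3 not called. Nkx6-1, which acts in ventral neural progenitors that give rise to motor neurons and oligodendrocytes, had at most 0.430 CPM in ESCs (median 0) and 182, 208, 269 and 378 CPM in OPC cultures, a difference of 12.16 (SE 0.27, edgeR adjusted p = 4.17e-20). No other member reached such a level there, and it was also 6.12 (SE 0.34) above the RA-treated libraries of 72 h. Six3, a factor of the rostral forebrain and eye, had at most 0.430 CPM in ESCs, 0.916, 3.86 and 4.54 CPM after RA and 11.8, 12.7, 22.6 and 28.8 CPM in OPC cultures (8.09, SE 0.42, against ESCs, and 3.12, SE 0.50, against RA). Among the 35 tested members, which leave out chromosome 8, these 2 alone were called higher than after RA, where 14.7% of all genes were.

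Meis1 and Meis2 were again far above ESCs. Meis1 had 62.6, 64.9, 77.6 and 86.8 CPM, 6.07 (SE 0.23) above ESCs, and was not called against RA. Meis2 had 100.4, 102, 111 and 125 CPM, 2.95 (SE 0.34) above ESCs and -1.85 (SE 0.44) against RA. Foxc1 had 14.6, 16.0, 28.4 and 31.4 CPM (6.99, SE 0.34, against ESCs). Irx1 had 2.58, 3.59, 4.88 and 6.16 CPM (4.53, SE 0.41) and Pax9, a paired factor of teeth and pharyngeal pouches, 2.22, 2.52, 2.90 and 3.22 CPM (3.70, SE 0.39), each above at most 0.343 CPM in ESCs. Lhx2 had 7.64, 8.81, 10.3 and 10.4 CPM against 0 to 3.58 in ESCs (2.46, SE 0.31). None of these overlapped with ESCs. Tbx15, a T-box factor of mesenchyme, had 10.8, 16.5, 17.6 and 19.9 CPM (1.94, SE 0.26) and overlapped with ESCs through 1 count in the shallow library, and Tbx2 had 1.40, 2.37, 11.2 and 11.3 CPM (4.19, SE 0.55).

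Of the 5 members highest in WT-H3.3 ESCs, Zic2, Foxd3 and Irx2 were lower in OPC cultures, Meis2 was higher, and Nkx6-2 was not called (-0.12). For Nkx6-2 that value spans lines that differed, with 43.1 and 29.96 CPM in WT-H3.3 and 1.18 and 1.26 CPM in H3.3K27M. The ESC libraries had 7.11 to 54.4 CPM. Zic2 had 0, 0.107, 0.280 and 0.444 CPM against 13.6 to 79.2 in ESCs (-8.05, SE 0.50, edgeR adjusted p = 1.55e-12). Foxd3 had 2 counts in 4 libraries against 1730 in ESCs, a CPM ratio of 324 (counting interval 89.7 to 2681). Isl1 had 2 counts against 129, a ratio of 24.2 (6.56 to 202), and Nkx2-5 none against 70, at least 8.75-fold lower. Tbx1 had 2 counts against 24 (ratio 4.50, 1.12 to 39.3). Evx1 (-4.27, at most 0.276 CPM), Irx2 (-1.46), Mnx1 (-1.67, 0.276 to 0.537 CPM) and Msx2 (-1.30, 0 to 3.76 CPM) were also lower. Their ESC ranges began at 0 CPM, in the shallow library for Irx2, Mnx1 and Msx2, and overlapped.

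Against the RA-treated libraries of 72 h, 18 of the 35 members were lower in OPC cultures, where 15.9% of all genes were. Many of the 35 passed the filter on low counts through their level after RA, and of the 17 that passed the ESC filter, none was higher, 9 were lower and 8 not called. Wt1 had 0.276, 0.537, 0.591 and 1.54 CPM (-7.52, SE 0.43), Msx1 0.887, 2.52, 5.69 and 6.81 CPM (-5.03, SE 0.45) and Foxa1 1.10, 1.72, 2.07 and 2.10 CPM (-3.71, SE 0.45). All lay below the 3 RA-treated libraries. Onecut2 had 0.840 to 3.33 CPM (-2.99), Msx2 0 to 3.76 (-3.96), Mnx1 0.276 to 0.537 (-4.65), Lhx1 0 to 0.644 (-4.81) and Zic1 0.700 to 3.01 (-2.92). Nkx2-5 was at least 42.1-fold lower, and Isl1 had 2 counts against 13 (ratio 24.9, 5.63 to 227). The medium, the cell types and the time in culture differ between these states and cannot be told apart, nor can library kit and culture batch. Of 57 other family genes tested, 21 were higher and 22 lower than in ESCs, and 9 higher and 29 lower than after RA.

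The line comparison with most members called was that of H3.3K27M with WT-H3.3 in OPC cultures, where 2 were higher and 7 lower of 19 tested. The cultures differed across the genome, with 27.9% of all 12511 genes called, 12.9% higher and 15.0% lower, and in 18 of the 19 members, as in 76.5% of all genes, the 2 libraries of each line did not overlap. The sample titles number the OPC libraries 1 at 72 h and 2 at 24 h, whereas every column of the table carries the number 2, so the 2 libraries of a line may come from 1 culture. Nkx6-2 had 43.1 and 29.96 CPM in WT-H3.3 at 24 and 72 h and 1.18 and 1.26 CPM in H3.3K27M. The difference was -4.88 (SE 0.31, edgeR adjusted p = 5.64e-07). Pax6 had 4.78 and 4.30 CPM in WT-H3.3 and 29.3 and 27.7 CPM in H3.3K27M, a difference of 2.65 (SE 0.21, edgeR adjusted p = 2.91e-06). These 2 kept their calls in all 9 alternatives, with differences of -5.10 to -4.62 for Nkx6-2 and 2.59 to 2.71 for Pax6.

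Of the other 7 called members, 6 were lower and 1 higher in H3.3K27M. Dlx2, a homeobox factor of interneurons and branchial arches, had 5.80 and 5.48 CPM in WT-H3.3 and 0.296 and 0.280 in H3.3K27M (-4.22, SE 0.51, edgeR adjusted p = 5.37e-05). Tbx2 had 11.2 and 11.3 CPM against 2.37 and 1.40 (-2.57, SE 0.33, edgeR adjusted p = 8.3e-05). Msx1 had 6.81 and 5.69 CPM against 0.887 and 2.52 (-1.85, SE 0.43, edgeR adjusted p = 0.00401). In all of these the H3.3K27M libraries were the lower ones. Msx2 had 69 counts in WT-H3.3 (3.13 and 3.76 CPM) and 3 in H3.3K27M (0.444 and 0 CPM), a ratio of 15.8 with a counting interval of 5.20 to 78.7 (edgeR adjusted p = 0.00105). Six3 had 22.6 and 28.8 CPM against 11.8 and 12.7 (-1.06, SE 0.21, edgeR adjusted p = 0.00152) and Zic1 2.67 and 3.01 CPM against 1.18 and 0.700 (-1.57, SE 0.47, edgeR adjusted p = 0.0167). Irx2 was higher in H3.3K27M, with 5.17 and 5.88 CPM against 1.84 and 2.68 (1.30, SE 0.36, edgeR adjusted p = 0.0104).

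Some of these calls depended on 1 library. Six3 fell under 2-fold when the 72 h library of WT-H3.3 was left out (-0.86), Irx2 lost its call without that of 24 h (edgeR adjusted p = 0.102), and Zic1 lost it without either WT-H3.3 library or the H3.3K27M library of 72 h and in DESeq2 (adjusted p = 0.0948). Foxc1 (-0.96), Nkx6-1 (0.74) and Meis1 (0.37) passed the test at less than 2-fold. Nkx6-1 had 208 and 182 CPM in WT-H3.3 and 378 and 269 CPM in H3.3K27M, so that it was high in both lines while its close relative Nkx6-2 was near 1 CPM in H3.3K27M. The remaining 7 tested members were not called, among them Meis2 (100.4 and 102 CPM against 111 and 125), Lhx2 (7.64 and 8.81 against 10.3 and 10.4) and Tbx15 (19.9 and 16.5 against 10.8 and 17.6).

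Markers of cell types moved with the line in OPC cultures. The 8 OPC markers summed to 764 to 791 CPM in WT-H3.3 and 2217 to 2613 in H3.3K27M, and of the 7 tested, 5 were higher and 2 lower in H3.3K27M. The 8 neuron markers summed to 832 to 838 and 1752 to 1892 CPM, but 3 of 7 tested were higher and 4 lower, with a median difference of -1.31, and Map2 alone had 600 and 604 CPM in WT-H3.3 and 1637 and 1784 in H3.3K27M. The 8 fibroblast markers summed to 613 to 679 CPM in WT-H3.3 and 25.5 to 29.7 in H3.3K27M, none of them at 0 in both libraries of H3.3K27M. The 8 endoderm markers had 100.2 to 119 against 22.7 to 25.0 CPM, with 2 at 0 in both H3.3K27M libraries, and the 7 trophoblast markers 38.7 to 51.5 against 1.77 to 3.50 CPM, with 3 at 0. The 7 neural crest markers had 719 to 896 and 785 to 927 CPM, of which Sox9 took 605 to 782 and 651 to 773. None of the 7 was higher and 5 were lower in H3.3K27M, with a median difference of -2.89. The 6 astrocyte markers had 1199 to 1222 and 1372 to 1879 CPM, yet none was higher and 3 were lower, with a median of -0.67. The 6 myelin markers had 27.7 to 31.0 and 34.3 to 34.6 CPM, with 1 higher and 1 lower of 4 tested. The part of these markers in the differences of the members was not tested, and line and cell-type makeup cannot be told apart here. Of 35 other family genes tested, 7 were higher and 21 lower in H3.3K27M, led by Tbx20 (-5.18), Tbx3 (-4.97) and Six4 (-2.14).

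**Figure D5:**
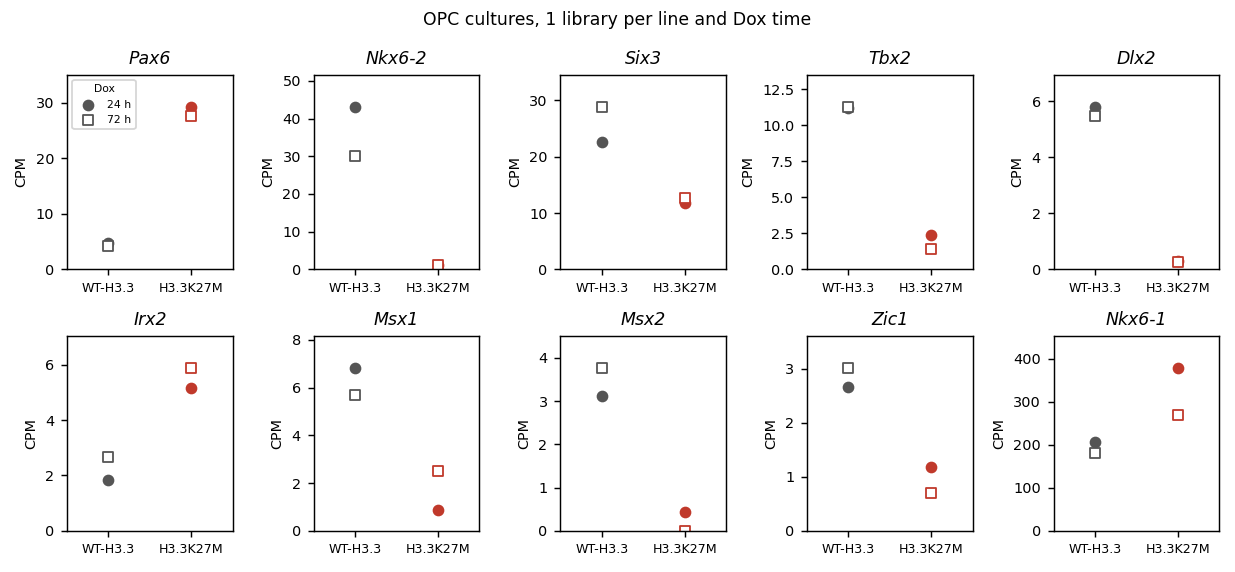
Each point is an OPC library, with its line on the x axis, CPM on the y axis and the Dox time as the symbol. Shown are the 9 members called between these lines, and Nkx6-1. Pax6 and Irx2 are higher in H3.3K27M, the other 7 called members are lower, and Nkx6-2 drops from 43.1 and 29.96 CPM to 1.18 and 1.26.

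The 3 members on chromosome 8 were tested only with that chromosome kept. Irx3, an Iroquois factor of neural tube and limb, had at most 0.640 CPM in the ESC libraries of 24 and 72 h without GSK343. It had 8.92, 17.4 and 18.5 CPM in RA-treated cells at 24 h and 101, 102, 112 and 161 CPM in OPC cultures. It was called higher in RA at 24 h (5.69), RA at 72 h (7.39) and OPC cultures (8.73) than in ESCs. Foxf1, a forkhead factor of lateral mesoderm, had at most 0.128 CPM in those ESC libraries and 15.4, 16.3 and 16.6 CPM in RA-treated cells at 24 h, higher by 7.72, and no count in ESCs at 72 h against 151 after RA, at least 248-fold higher. In OPC cultures it was lower with H3.3K27M (-1.96, edgeR adjusted p = 0.0133), from 3.22 and 3.11 CPM to 1.33 and 0.280. Irx5 was higher in RA at 24 h (3.60), RA at 72 h (2.57) and OPC cultures (4.68), and in RA-treated cells it was higher in H3.3K27M than in H3.3K27L (1.46, edgeR adjusted p = 0.0421). OPC cultures were also set against the RA-treated libraries of 72 h. Irx3 (1.63, edgeR adjusted p = 0.000305) and Irx5 (2.34, edgeR adjusted p = 0.00191) were called higher in OPC cultures, and Foxf1 lower (-3.28, edgeR adjusted p = 2.51e-05). The 9 members that passed the filter in neither the ESC nor the cross-state test were Pax2, Pax5, Pax7, Pax8, Lhx3, Lhx9, Evx2, Onecut1 and Zic4. None of them exceeded 2.78 CPM in an RA-treated or OPC library, the highest being Pax2 in H3.3K27M RA-treated cells at 24 h.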

How the data were processed

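RNA was counted per gene in 42 libraries of mouse KH2 cells, made with 3′ tag (QuantSeq) or KAPA kits, and which kit a library had was not given in the sources used here. Per the labels, the authors aligned reads with STAR 2.7.1 and deposited raw counts per gene. The counting tool and annotation were not given in the sources used here, and Bowtie2, SAMtools and bedtools served the ChIP-seq data, which were not analysed here. All columns of the deposited count tables were mapped to samples.

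The counts were joined by gene identifier, and gene positions came from GENCODE vM1 (NCBIM37). Genes of chromosome 8 were left out of the tests and of the scaling, because the study's methods mention a possible duplication of that chromosome in clones, and were kept in an alternative. Tests used edgeR 4.0.16 (R 4.3.3): TMM scaling, its filter on low counts, robust quasi-likelihood dispersion and the quasi-likelihood F test, with Benjamini-Hochberg adjustment over all genes tested. The SE is the fold change divided by the square root of F. Called genes passed an adjusted p of 0.05 with a change over 2-fold. ESC fits held all 32 ESC libraries with line, drug and time (14076 genes, 17 members), and a difference over times averages the time-specific ones. RA fits held line and time (12265 genes, 26 members), OPC fits line alone (12511 genes, 19 members), and fits across states the 24 and 72 h libraries of all 3 lines without GSK343 (15923 genes, 35 members). CPM used TMM factors over all 42 libraries. The test code was tested on simulated data.

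Where a member had no count in a group, a fold is a bound against a floor of 3 counts over the group. Ratios with 1 to 3 counts have 95% exact intervals. Floors and intervals cover counting error only. Library totals ran from 68378 to 22269533 counts. Of 18 replicate pairs, the chi-square per degree of freedom was 1.95 to 76.3, so each pair was kept as separate libraries.

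Replicate numbers come from the labels. Over 9775 genes, same-numbered H3.3K27M and WT-H3.3 ESC libraries deviated together (r = 0.573 to 0.684 over the 4 times), whereas H3.3K27L (r = -0.684 to 0.229) and GSK343 (r = -0.389 to 0.587) did not at each time. DESeq2 1.42.0, RLE scaling, no filter on low counts, chromosome 8 kept, only the libraries compared, the replicate block, pooled Dox times, WT-H3.3 libraries only and leaving out each library were tried as alternatives. The separate H3.3K27L replicates and the crossed block were added after seeing the data.

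All 47 members are accounted for. Values per library were given for called members, at most the 10 of lowest adjusted p per direction, and otherwise for the 3 of lowest unadjusted p. Members on chromosome 8 were given as levels, and other gene lists as counts with at most 3 examples. The members, lists and tests were chosen with earlier results of these data known. Promoter sequences came from RefSeq (GRCm38.p6), and 12 members had no entry that matched. The level of the H3.3 transgenes was not analysed here.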

Additional observations from a re-analysis of the deposited data

Results flagged for a closer look

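In ESCs, 5 levels of a tested member, in 4 libraries, lay far from the other 7 of their arm, among 72 groups of libraries examined, where chance alone flags about 1 group in 20. Onecut2 had 2.75 CPM in the second H3.3K27M library at 8 h. Mnx1 had 1.98 CPM in the first H3.3K27L library at 72 h, and Tbx15 10.5 CPM in the second GSK343 library at 24 h. In the shallow second H3.3K27L library at 72 h, Msx2 was at 0 CPM and Onecut2 at 13.6 CPM, which is 1 count.

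The H3.3K27M difference from WT-H3.3 was not the same in OPC cultures and in RA-treated cells for 9 members, by a test of the difference itself that was added after the values were seen (edgeR interaction term, 14325 genes, of which 18.0% were called). All members were tested but Pax2, Pax5, Pax7, Pax8, Lhx3, Lhx5, Lhx9, Six2, Foxd3, Foxf1, Evx1, Evx2, Irx3, Irx5, Onecut1 and Zic4. The OPC minus RA difference was 1.56 on the log2 scale for Pax6, which was called higher in H3.3K27M in OPC cultures (2.65) and not after RA (1.08, edgeR adjusted p = 0.155). It was -4.26 for Nkx6-2, -4.75 for Dlx2, -4.09 for Msx2, -3.20 for Tbx2, -3.10 for Zic1, -2.07 for Msx1 and -1.46 for Foxc1. For Lhx1 the fitted value was -5.42 (edgeR adjusted p = 0.0362) and rests on 9 WT-H3.3 counts against 0 H3.3K27M counts in OPC cultures. In both H3.3K27M libraries after RA, Zic1, Foxc1, Msx1 and Msx2 stood above the WT-H3.3 library of the same Dox time. In both H3.3K27M OPC libraries they stood below it.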

How the results depend on the processing

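Counts of called members moved with some choices, and the cause was not tested. Without the filter on low counts, 1 member was called for H3.3K27M against WT-H3.3 in ESCs over all times and 1 at the late times, 4 for H3.3K27L, 4 for H3.3K27M against GSK343, and in RA-treated cells 2 for H3.3K27M against WT-H3.3 and 7 against H3.3K27L. DESeq2 called 1 for H3.3K27L in ESCs and 5 between RA times. A fit of only the libraries compared called 0 for H3.3K27L at the late times, and in RA-treated cells 2 for H3.3K27M against WT-H3.3 and 10 against H3.3K27L. Pooled Dox times gave 0 in both RA comparisons with H3.3K27L, and WT-H3.3 alone gave 1 between RA times. H3.3K27L replicate 1 alone gave 1 over all times and 0 at the late times, and replicate 2 alone 0, 0, and 0 against H3.3K27M. With replicate 2 alone, Meis1 turned to -0.69 against WT-H3.3 and, for H3.3K27M against H3.3K27L, to 0.19. Without the first H3.3K27L library at 72 h it turned to -0.50 and 0.0037, when the 72 h value rests on the library of 68378 counts. Msx1 in the late minus early GSK343 difference turned to 1.88 without the first GSK343 library at 8 h, and Lhx2 in that of H3.3K27M to 0.29 without the first H3.3K27M library at 4 h. Neither was called. Over all single-library omissions, the highest Meis1 difference for H3.3K27L was 1.45 and its lowest for H3.3K27M against H3.3K27L -1.81, and the lowest Msx1 and Lhx2 differences were -3.19 and -1.03.

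Leaving out 1 library at a time gave 0 to 1 called members for H3.3K27M over all times (1 without the first H3.3K27M library at 4 or at 8 h), 0 to 3 for H3.3K27L, 0 to 1 for H3.3K27L at the late times, 0 to 4 for H3.3K27M against H3.3K27L and 0 to 6 against GSK343 (6, 2 and 4 without the first H3.3K27M library at 4, 8 and 24 h). In RA-treated cells it gave 0 to 3 for H3.3K27M, 1 to 4 for H3.3K27L and 1 to 5 between them. It gave 31 to 33 for RA against ESCs at 24 h, 28 to 30 at 72 h, 5 to 8 between RA times (5 without the H3.3K27L library of 24 h), 23 to 28 for OPC cultures against ESCs, 18 to 25 against RA and 7 to 12 between OPC lines. GSK343, the late H3.3K27M comparison and both late minus early differences stayed at 0 throughout. An arm left with 1 library was assumed to vary like the others.

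With the replicate number as a block, 1 member (Isl1) was called for H3.3K27M against GSK343 and 10 instead of 9 between OPC lines, where the number in the sample titles coincides with the Dox time, and the number of members called in the other ESC comparisons did not move. Over all genes, the block moved the calls for H3.3K27M from 2 to 23, for late H3.3K27L from 77 to 154 and for H3.3K27M against GSK343 from 12 to 43. Crossing the H3.3K27L numbers gave 2, 1 and 2 called members in its 3 comparisons. RA-treated libraries had no paired analysis. Of 2468 values of 162 named results under alternatives, 2340 kept their direction and side of the threshold, 108 lost and 14 gained a call, and 6, the Meis1, Msx1 and Lhx2 values above, turned direction. Depth limits the members under 1 CPM and every value in the shallow library.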
